A study of Mus musculus with 6 samples.

Results

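Long noncoding RNAs that stay in the nucleus and short noncoding RNAs that carry small nucleolar RNAs (snoRNAs) in their introns were followed in mouse microglia, the resident macrophages of the brain, with and without the microRNA miR-137. The 9 genes were taken by symbol from a count table of 17459 genes, and all 9 had a row. Malat1, Neat1, Meg3, Kcnq1ot1 and Miat make up the long nuclear RNAs, and Gas5, Snhg6, Snhg8 and Snhg12 the snoRNA hosts. They were chosen by their counts in these libraries, that is, by the same comparison of the genotypes that is described here. Their levels and fold changes are therefore a description, given without a test.

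RNA sequencing covered 3 libraries of each genotype from brains of male C57BL/6J mice labelled as 8 weeks old. The knockout (cKO) carried 2 loxP-flanked Mir137 alleles and the control (cWT) 2 intact ones. Both genotypes carried the Tmem119-CreERT2 transgene, a Cre recombinase under the microglial gene Tmem119 that tamoxifen switches on, and both fall under the same tamoxifen course of 7 daily injections at 7 to 8 weeks of age. The isolation of microglia is labelled with 4 mice, and no source used here says which mice went into which replicate, so p-values measure the spread between these libraries, which may be technical. For Mir137 itself the authors' deposited table lists a mean of 0, so these libraries cannot check its deletion.

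Nuclear long RNAs act where they are made. Malat1 gathers at nuclear speckles, which store splicing factors, Neat1 is the scaffold of paraspeckles, which hold RNA-binding proteins, and Kcnq1ot1 is an imprinted antisense RNA that silences genes around it. A snoRNA host works in another way. Its introns are trimmed into snoRNAs, which guide the chemical modification of ribosomal RNA, while the spliced exons are exported and often removed by nonsense-mediated decay, a pathway that ribosomes trigger. Many hosts start with a pyrimidine tract, as ribosomal protein genes do, which ties their transcripts to growth signals.

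The long RNAs and the hosts differed in opposite directions, with 1 exception. All 5 long RNAs were lower in cKO, by 2.32-fold for Neat1 and 5.98-fold for Malat1 as ratios of mean CPM, the counts scaled by library size with edgeR's TMM factors. Snhg6, Snhg8 and Snhg12 were higher in cKO, by 7.31-, 3.13- and 2.18-fold. Gas5, the host with the most counts in cWT, was 1.98-fold lower. For all 9 genes the 3 cKO libraries lay wholly on 1 side of the 3 cWT libraries, as they did for 74.6% of the 13490 genes tested.

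The annotated starts of 3 hosts and 2 long RNAs are shown because they carry, or lack, the pyrimidine tract that marks growth-regulated hosts. RefSeq (GRCm38.p6) gave 9 starts for 7 of the 9 genes, and Neat1 and Snhg6 were not matched. Each line holds 30 bases before the start and 50 from it, 5′ to 3′ on the strand of the gene. Capitals mark a run of at least 6 C or T that begins with C and lies within 10 bases of the start, searched on that strand alone.
Gas5 downstream start, chr1:161035136-161035215, plus strand: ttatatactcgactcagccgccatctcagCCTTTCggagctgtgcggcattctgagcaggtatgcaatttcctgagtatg
Snhg8, chr3:123508287-123508366, minus strand: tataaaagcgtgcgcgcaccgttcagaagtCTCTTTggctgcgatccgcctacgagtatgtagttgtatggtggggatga
Snhg12, chr4:132308648-132308727, plus strand: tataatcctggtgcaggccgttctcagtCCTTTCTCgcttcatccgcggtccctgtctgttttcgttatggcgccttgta
Miat, chr5:112228899-112228978, minus strand: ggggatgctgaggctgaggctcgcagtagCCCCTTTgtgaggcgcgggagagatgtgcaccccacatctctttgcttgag
Malat1, chr19:5802623-5802702, minus strand: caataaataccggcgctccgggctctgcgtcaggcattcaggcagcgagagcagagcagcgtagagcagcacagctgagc

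Gas5, Snhg8 and Snhg12 each held such a tract at a start, and so did Miat. Malat1, Kcnq1ot1, both starts of Meg3 and the upstream start of Gas5 did not. The tract was present at 23.5% of the 32851 RefSeq starts with a window of the same 300 bases and at 53.6% of 69 starts of ribosomal protein genes, so a match is common. The tract was shared by hosts on opposite sides of the comparison: Gas5 was lower in cKO, while Snhg8 and Snhg12 were higher.

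The microRNA that was deleted is shown with its seed, the bases 2 to 8 that choose its targets, in capitals, beside the matching letters in the 2 genes that hold any. Sites were searched as AGCAATA in the principal or longest GENCODE transcript.
mmu-miR-137-3p: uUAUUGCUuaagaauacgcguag
Meg3 site, base 2818 of a transcript of 14548 bases: tagaggatagaaAGCAATAgggagtggagt
Kcnq1ot1 site, chr7:143256127-143256156, minus strand: gaataactaagaAGCAATAatcaaaaagaa

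Meg3 held 1 site and Kcnq1ot1 held 12, while the other 7 genes held none. Over the 12983 tested genes with a transcript, 15.5% held at least 1 site, at 0.527 sites per 10 kb. The rate in Kcnq1ot1 was 1.29 and in Meg3 0.687 per 10 kb. Both genes with sites were lower in the knockout, as were Malat1, Neat1 and Gas5, which hold none. A match of letters is a description and not a bound site.

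Malat1 (chromosome 19, 5795690 to 5802672, GRCm38, GENCODE M21, 1 exon) had the most counts of the 9 in all 6 libraries, without regard to length. Its CPM was 511, 343 and 347 in cWT and 63.8, 83.4 and 53.4 in cKO. The genotypes were far apart, and the widest gap within a genotype was the excess of cWT replicate 1 over the other two. The means were 400 ± 95.6 and 66.9 ± 15.2 CPM (SD, n = 3 each), and the log2 fold change was -2.58 (SE 0.19). Its share of all counts went from between 0.0392% and 0.0582% in cWT to between 0.00463% and 0.0075% in cKO.

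Neat1 lies upstream on the same chromosome and strand (5824708 to 5845478) and is made as a short and a long isoform that share a start. Its CPM was 101, 99.8 and 96.1 in cWT and 39.3, 48.0 and 40.9 in cKO. The cWT libraries were nearly level, and all cKO libraries were below them. The log2 fold change was -1.21 (SE 0.10). Neat1 was lower by less than Malat1, and this holds for the ratio of their counts within each library, which no scaling between libraries can alter. The log2 ratio of Neat1 to Malat1 was -2.33, -1.78 and -1.85 in cWT and -0.70, -0.80 and -0.38 in cKO, a difference of 1.36 between the means. The table gives 1 value per gene, so the isoforms of Neat1 were not told apart.

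Frmd8, which lies beside Neat1 and encodes a protein that binds the inactive rhomboids called iRhoms, did not pass the test, at 0.16 on the log2 scale (SE 0.10, edgeR adjusted p = 0.1473). In a fit with offsets that remove trends with transcript length and GC content, it was called higher, at 0.96 (SE 0.07, edgeR adjusted p = 7.255e-10). It ends 4224 bases from Neat1 in the annotation and stood at 92.1 ± 3.84 CPM in cWT and 103 ± 10.7 CPM in cKO (SD, n = 3 each).

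Meg3, a maternally expressed imprinted RNA (chromosome 12, 109541001 to 109571726), was scarce. Its counts were 27, 31 and 66 in cWT and 3, 4 and 9 in cKO, or 1.44, 1.59 and 3.34 against 0.292, 0.354 and 0.683 CPM. The groups did not overlap, but cWT replicate 3 held more counts than the other two cWT libraries together. The log2 fold change was -2.20 (SE 0.51), and it ranged from -2.67 to -1.72 when each library was left out in turn.

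Kcnq1ot1 (chromosome 7, 143203458 to 143296549, annotated as a single exon) had counts of 52, 44 and 105 in cWT and 8, 11 and 2 in cKO. In CPM these were 2.77, 2.25 and 5.31 against 0.779, 0.974 and 0.152. Every cKO library was below every cWT library, and the spread within cKO, a CV of 67.7%, was wider than the 47.4% of Meg3. The log2 fold change was -2.48 (SE 0.50), with -2.95 to -1.94 over the omissions. Kcnq1ot1 lies inside Kcnq1, which runs on the opposite strand, and no source used here says whether reads were counted by strand, so reads of the pair cannot be told apart. Kcnq1 itself, a potassium channel gene, stood at 2.47 ± 0.744 and 2.01 ± 0.435 CPM (SD, n = 3 each) and did not pass the test (log2 difference -0.28, SE 0.34, edgeR adjusted p = 0.4649).

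Miat, a nuclear RNA best known from neurons (chromosome 5, 112213228 to 112229395), was close to the limit of detection and was set aside by the filter on low counts, which the other 8 genes passed. It had 18, 17 and 10 counts in cWT and 0, 1 and 1 in cKO. The 2 cKO counts against 45 cWT counts gave a ratio of 0.0743, with an exact 95% interval of 0.00874 to 0.285 that covers counting error only.

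Meg3 and Miat are abundant in neurons, so neuronal markers are given beside them. Their summed level was 20.7 to 27.1 CPM in cWT and 30.4 to 38.6 CPM in cKO. Of 15 markers, 7 stayed under 1 CPM in every library (Snap25, Rbfox3, Gad2, Slc17a7, Slc17a6, Nefl and Nefm). Of 7 tested, 2 were higher and 0 lower, with a median log2 fold change of 0.05, beside 35.6% higher and 36.5% lower over all genes. The summed neuronal level was higher in cKO, where Meg3 and Miat were lower, while most tested markers were not called. The part of neurons in the values of Meg3 and Miat was not tested. In these bulk samples, fewer cells of a type and less RNA per cell cannot be told apart.

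**Figure D1:**
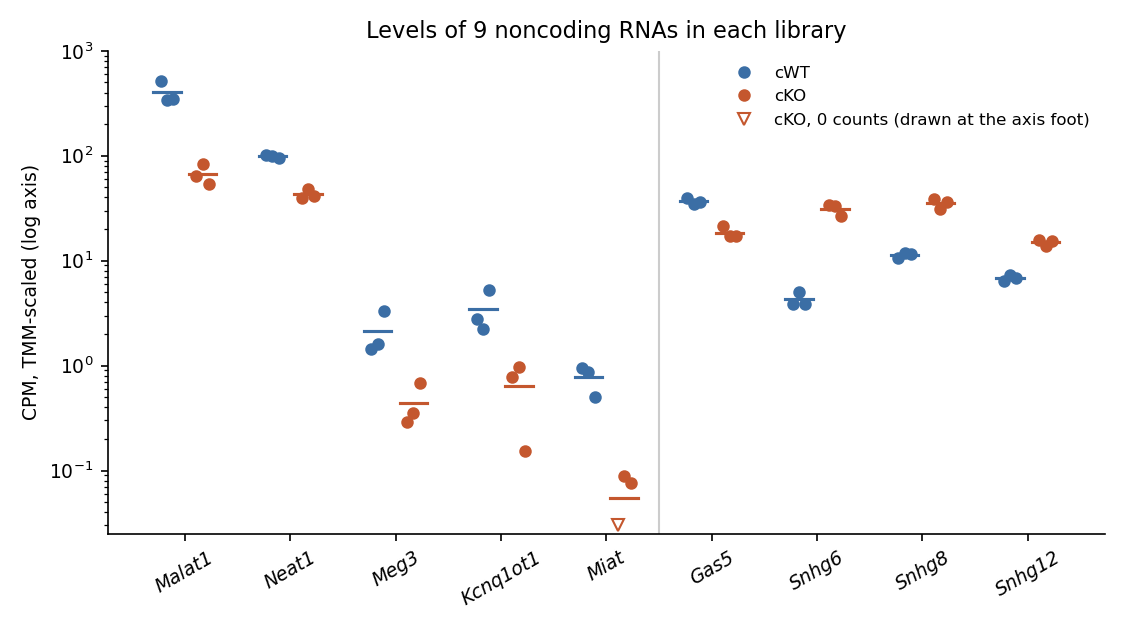
CPM after TMM scaling (log axis) of the 9 genes in each of 3 cWT (blue) and 3 cKO (orange) libraries, with horizontal bars at the group means and an open triangle at the axis foot for a library with 0 counts. The long RNAs left of the line and Gas5 are lower in cKO, and Snhg6, Snhg8 and Snhg12 are higher.

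Gas5 (chromosome 1, 161034422 to 161038539) was named for its build-up in growth-arrested cells. It carries 9 annotated snoRNA names within its body, the most among the 4 hosts. Its CPM was 39.4, 34.7 and 35.9 in cWT and 21.2, 17.3 and 17 in cKO. The lowest cWT library was well above the highest cKO library. The means were 36.6 ± 2.43 and 18.5 ± 2.36 CPM (SD, n = 3 each), and on the log2 scale Gas5 was at -0.99 (SE 0.12).

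Snhg6, the host of Snord87 (chromosome 1, 9941959 to 9944118), had the largest difference of the hosts. Its CPM was 3.88, 5.07 and 3.89 in cWT and 33.7, 33.5 and 26.7 in cKO. No library came near the other genotype. The log2 fold change was 2.86 (SE 0.16).

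Snhg8, the host of Snora24 (chromosome 3, 123507552 to 123508404), was at 10.6, 11.7 and 11.5 CPM in cWT and at 38.6, 31.1 and 35.9 CPM in cKO. The log2 fold change was 1.64 (SE 0.13). Snhg12 (chromosome 4, 132308623 to 132311024), which carries Snora16a, Snora44, Snora61 and Snord99, was at 6.44, 7.37 and 6.78 CPM in cWT and at 15.7, 13.8 and 15.5 CPM in cKO. Its log2 fold change of 1.13 (SE 0.16) was the smallest of the 3 hosts that were higher.

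The mature snoRNAs themselves were not measured. Of 110 Snord and Snora symbols in the authors' deposited table, 109 had a base mean of 0. The remaining symbol, Snord17, is no passenger of these hosts and had 5 counts over all libraries. The values above are thus those of the host transcripts.

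The 4 hosts together held 1133, 1149 and 1148 unscaled counts in cWT and 1122, 1080 and 1253 in cKO. The cKO libraries were shallower, and in CPM the sum was higher there without overlap, at 60.3, 58.8 and 58.1 in cWT and 109, 95.6 and 95.1 in cKO. The make-up of the sum also differed. Gas5 supplied 65.3%, 59.0% and 61.8% of these counts in cWT and 19.4%, 18.1% and 17.9% in cKO. Snhg6 went the other way, from 6.44%, 8.62% and 6.71% to 30.8%, 35% and 28.1%. Snhg8 held 17.6% to 19.9% in cWT and 32.5% to 37.7% in cKO, and Snhg12 10.7% to 12.5% and 14.3% to 16.3%. These shares are ratios within a library, so scaling cannot alter them.

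The log2 ratio of Snhg6 to Gas5 was -3.33, -2.77 and -3.19 in cWT and 0.67, 0.95 and 0.65 in cKO. The differences between the means were 3.86 for Snhg6, 2.63 for Snhg8 and 2.12 for Snhg12 against Gas5. Among the 3 hosts that were higher, Snhg6 gained on Snhg12 by 1.74 and Snhg8 on Snhg12 by 0.51, each without overlap between the genotypes.

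The long RNAs lost ground to the hosts in the same libraries. There were 8.47, 5.84 and 5.97 Malat1 counts for each count of the 4 hosts in cWT and 0.584, 0.872 and 0.562 in cKO. For Neat1 the numbers were 1.68, 1.70 and 1.66 against 0.360, 0.502 and 0.430. On the log2 scale the difference was -3.34 for Malat1, -1.97 for Neat1, -2.87 for Meg3 and -3.33 for Kcnq1ot1.

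**Figure D2:**
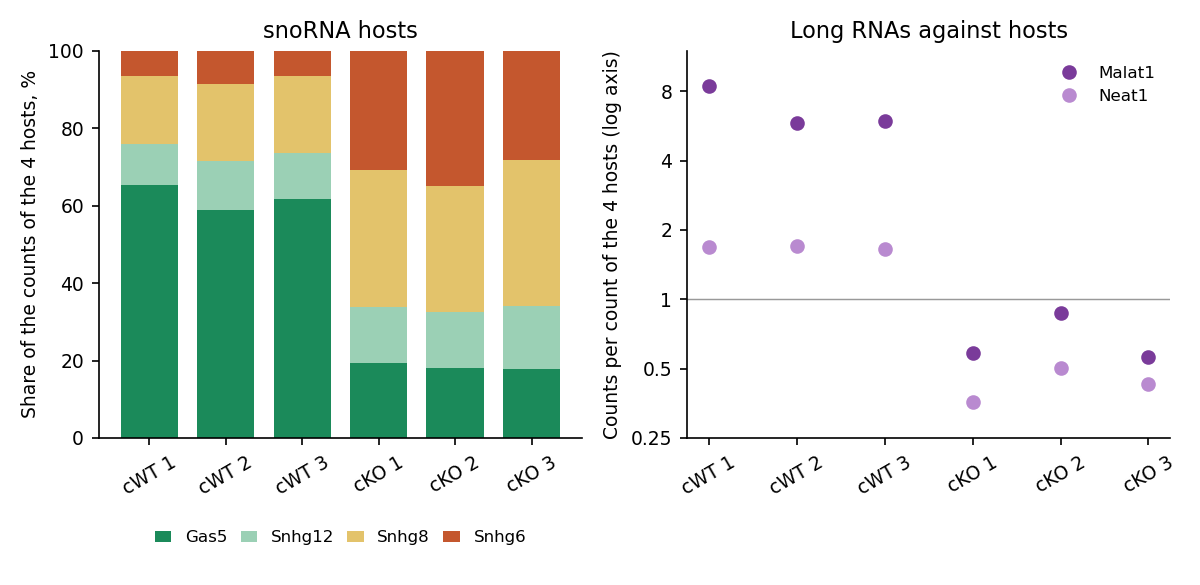
Left, the share (%) of the summed counts of the 4 snoRNA hosts that each host supplied, 1 bar per library. Right, Malat1 and Neat1 counts per count of the 4 hosts (log axis, line at 1). Gas5 holds 59.0% to 65.3% in cWT and 17.9% to 19.4% in cKO, and Malat1 passes from above to below the hosts.

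The order of the levels also changed when CPM was divided by transcript length, the only scale on which genes can be compared with each other. With the principal or longest transcript, Malat1 led in cWT at 57.3 ± 13.7 CPM per kb (SD, n = 3, as are the following). Snhg8 (14.5 ± 0.761) and Gas5 (14.3 ± 0.949) did not differ beyond their spread. Snhg6 (5.25 ± 0.834), Neat1 (4.77 ± 0.129) and Snhg12 (4.46 ± 0.308) came next and overlapped as well. Meg3, Miat and Kcnq1ot1 were under 0.15, at 0.146 ± 0.0727, 0.0849 ± 0.0262 and 0.037 ± 0.0176.

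In cKO the hosts led. Snhg8 stood at 45.4 ± 4.94 and Snhg6 at 38.4 ± 4.85 CPM per kb, within their spread of each other. Snhg12 (9.75 ± 0.666) and Malat1 (9.58 ± 2.18) were level, followed by Gas5 (7.24 ± 0.924) and Neat1 (2.06 ± 0.222). These levels depend on the transcript taken. With the median length of the annotated transcripts, which is 606 bases for Malat1, Malat1 led in both genotypes, at 660 ± 158 and 110 ± 25.1 CPM per kb, and Snhg8 followed it in cKO at 66.7 ± 7.25.

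Most genes in these libraries differed between the genotypes. The edgeR quasi-likelihood test with Benjamini-Hochberg adjustment called 72.1% of the 13490 genes tested, 35.6% higher and 36.5% lower in cKO. Totals ran from 16503817 to 17482042 counts in cWT and from 12068698 to 15212806 in cKO. Scaling by total count alone moved the median over all genes from -0.02 to -0.42 on the log2 scale and the split from 4803 higher and 4926 lower to 3331 and 6742. The sign of each of the 8 filtered genes was the same on that scale. Of 14 microglial markers, 6 were higher and 6 lower, and their summed level was 42101 to 44746 CPM in cWT and 47139 to 54593 CPM in cKO. P2ry12, a receptor of resting microglia, stood at 4270 ± 615 and 5123 ± 819 CPM (SD, n = 3 each) and did not pass the test (adjusted p = 0.08836), but was lower with the offsets, at -0.34 (adjusted p = 1.504e-03). Cx3cr1, the fractalkine receptor gene, fell by 1.29 (adjusted p = 6.142e-08) and was at -0.65 with the offsets. Markers of other cells were not all level. Choroid plexus and ependymal markers summed to 2173 to 2457 CPM in cWT and 10475 to 14136 CPM in cKO, with 8 of 8 called higher, and neutrophil markers to 3403 to 3964 and 10375 to 14956 CPM, with 4 of 7 higher and 2 lower. Ly6g, a defining neutrophil marker, was not analysed here. Astrocyte markers summed to 404 to 422 CPM in cWT and 431 to 663 CPM in cKO. Endothelial and mural markers summed to 1424 to 1754 and 1805 to 2157 CPM. For oligodendrocyte markers (323 to 330 and 326 to 487 CPM) and border-associated macrophage markers (798 to 1004 and 761 to 943 CPM) the genotypes overlapped. The part of these cells in the values of the 9 genes was not tested.

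Fold changes in these libraries followed transcript length, and the long RNAs and most of the hosts sit toward opposite ends of it. The 12983 tested genes with an annotated length were divided into 10 classes by length. The shortest class (174 to 1226 bases) had a median log2 fold change of 1.57 and the longest class (6459 bases and more) one of -1.45. All 4 long RNAs that passed the filter fall in the longest class, at 6983 bases for Malat1, 14548 for Meg3, 20771 for Neat1 and 93092 for Kcnq1ot1. Snhg6 (816 bases) and Snhg8 (776 bases) fall in the shortest class and Snhg12 (1538 bases) in the next.

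Set beside genes of the same length class, the members were not alike. The longest class is wide, from 6459 to 123179 bases. Of the tested genes, 53 are longer than Meg3, 9 than Neat1 and 1 than Kcnq1ot1, so for them most genes of the class are shorter. Snhg8 and Snhg12 were close to the median of their classes, 0.07 and 0.15 above it on the log2 scale, and inside its quartiles. Neat1 was 0.24 above its median, with 62.4% of the genes of that class below it. Malat1 was 1.13 below the same median, where 97 of 1298 genes were as low or lower. Kcnq1ot1 and Meg3 were 1.03 and 0.75 below it. Snhg6 was 1.30 above the median of the shortest class, with 53 of 1299 genes as high or higher.

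Gas5 stood apart from the other hosts here too. Its longest annotated transcript (2556 bases, with a retained intron) put it in the class of 2554 to 3002 bases, whose median was 0.05, and Gas5 was 1.04 below that. Its 25 annotated transcripts have a median of 629 bases. When the median transcript length was used for all genes, Gas5 moved to the shortest class and was 1.6 below a median of 0.61. On that basis the others moved away from their class medians too: Snhg8, Snhg12 and Snhg6 were 1.03, 0.62 and 2.25 above, and Malat1, Neat1, Meg3 and Kcnq1ot1 were at -3.19, -1.12, -2.55 and -1.40 from them.

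**Figure D3:**
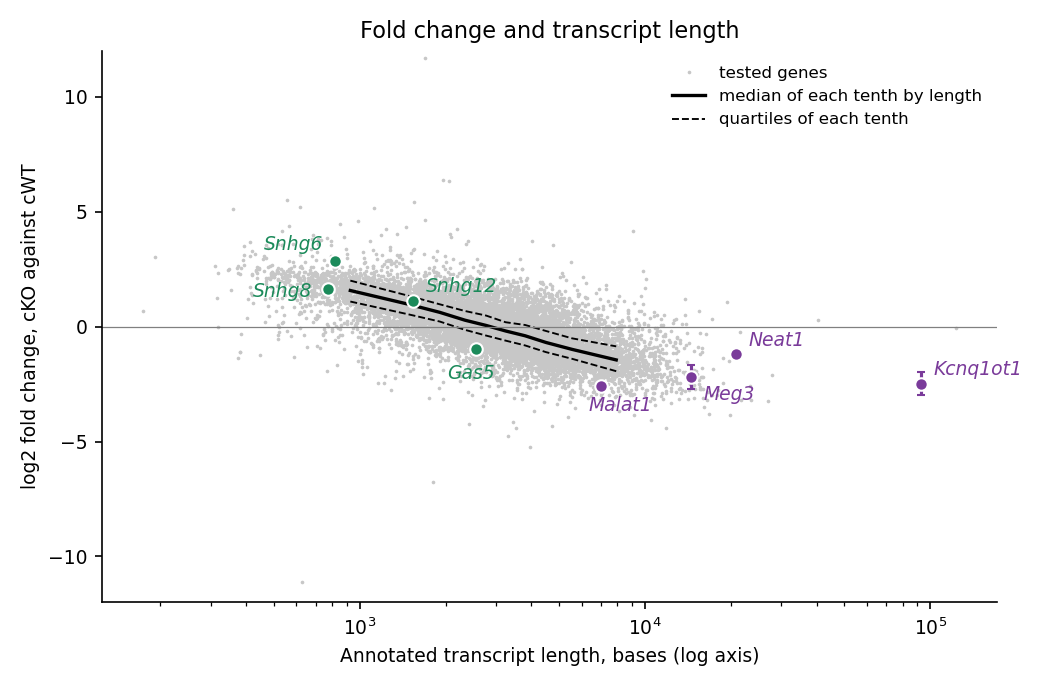
Log2 fold change (cKO against cWT) against annotated transcript length (log axis) for the tested genes (grey), with the median (solid line) and quartiles (dashed) of each of 10 classes of genes by length, and the 8 filtered genes with SE bars (purple, long RNAs; green, snoRNA hosts). Malat1 and Gas5 lie below the lines and Snhg6 above them.

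Offsets that remove smooth trends with length and GC content from each library gave another view. Malat1 stayed lower at -1.54 (SE 0.13) and Gas5 at -1.34 (SE 0.10), and Snhg6 stayed higher at 1.0 (SE 0.15). Snhg8 and Snhg12 were near 0, at -0.14 (SE 0.12) and 0.19 (SE 0.15), and Meg3 at -0.23 (SE 0.54). Neat1 turned to 1.10 (SE 0.08) and Kcnq1ot1 to 1.12 (SE 0.53). For the last pair the curve rests on few genes, since 9 tested genes are longer than Neat1 and 1 is longer than Kcnq1ot1.

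The result for Neat1 also hangs on the isoform. With the median transcript length, 2017 bases for Neat1, the offset value was -1.07 (SE 0.08). On that basis Malat1 stood at -3.13 (SE 0.17), Meg3 at -2.56 (SE 0.50), Kcnq1ot1 at 0.16 (SE 0.47), Gas5 at -1.50 (SE 0.10), Snhg6 at 2.19 (SE 0.15), Snhg8 at 0.92 (SE 0.12) and Snhg12 at 0.74 (SE 0.15). Malat1, Gas5 and Snhg6 kept their sign in all 3 fits, as did Meg3 and Snhg12, while Neat1, Kcnq1ot1 and Snhg8 did not.

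**Figure D4:**
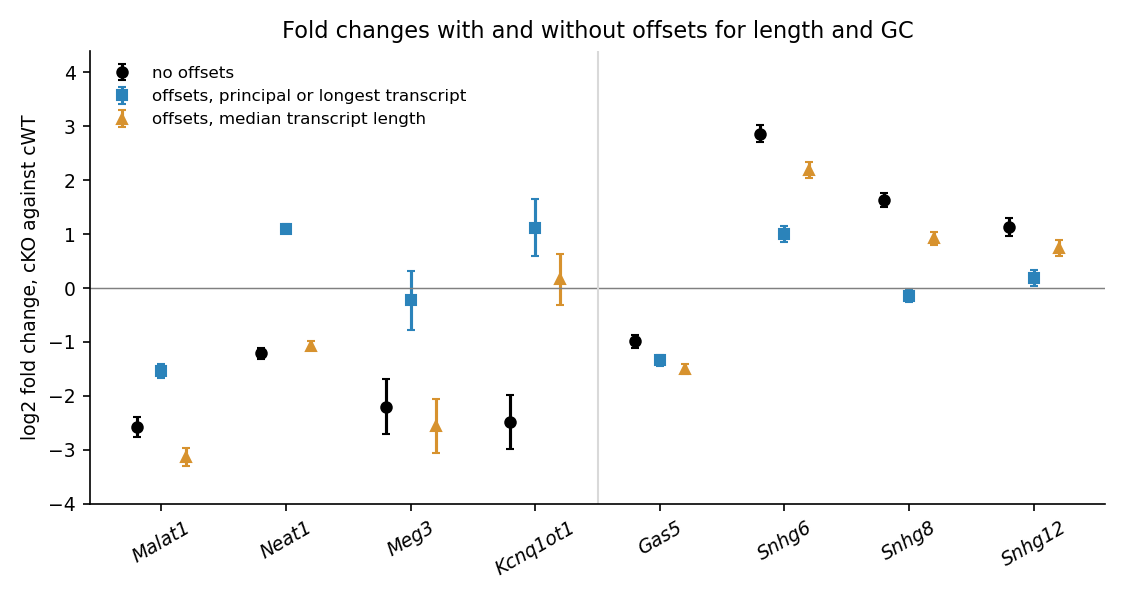
Log2 fold change (cKO against cWT, bars are SE) of the 8 filtered genes without offsets (black circles) and with offsets for GC content and for the length of the principal or longest transcript (blue squares) or the median transcript length (orange triangles). Malat1 and Gas5 stay below 0 and Snhg6 above it in all 3 fits, while Neat1, Kcnq1ot1 and Snhg8 change sign.

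Most other snoRNA host noncoding RNAs were higher in cKO. Of 11 tested, 8 rose and 0 fell, beside 35.6% higher and 36.5% lower over all genes. The median log2 fold change was 1.38, beside -0.02 over all genes. The share called in either direction was 72.7%, beside 72.1%. The median transcript of those with an annotated length was 2250 bases. Over all tested genes of 2113 to 2554 bases, 45.0% were higher and 14.6% lower (median 0.28). The host 1500012F01Rik, a synonym of Zfas1 in RefSeq, rose from 9.24 ± 0.414 to 39.8 ± 1.94 CPM (n = 3 each, log2 fold change 2.11, SE 0.12, edgeR adjusted p = 4.956e-11). Snhg1 rose by 1.79 (SE 0.18, adjusted p = 6.963e-08) and Snhg5 by 1.38 (SE 0.14, adjusted p = 1.054e-07). Snhg17, Snhg14 and Dancr did not pass, with log2 fold changes of -0.07, 0.52 and 0.64. With the offsets, 8 of these could be fitted, and 2 rose and 1 fell (median 0.35), with Snhg1 at 1.46, Snhg5 at 0.09 and Snhg3 at -0.42. The host 1500012F01Rik had no annotated length and was not among the 8. Requiring 5 CPM in 3 or more libraries left 5 called, each of them higher. Snhg18, at 1.02, was not called without cWT replicate 1, cWT replicate 3 or cKO replicate 1.

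Protein-coding genes that hold a snoRNA on the same strand were split. Of 205 tested, 77 rose and 84 fell, with a median of -0.03, beside 35.6% higher and 36.5% lower over all genes. Scaling by total count gave 65 and 112, and the offsets gave 67 and 65. Among the 4 most abundant, Tpt1, which encodes a growth-linked cytosolic protein, rose from 1153 ± 102 to 4876 ± 505 CPM (log2 fold change 2.08, adjusted p = 5.212e-11), Rpl13a by 2.25, Rpl10 by 1.83 and the chaperone gene Hspa8 by 0.91. With the offsets these 4 were at 0.92, 0.97, 0.2 and 0.68. A division made after the values were seen parted the 205 genes by product. All 30 that encode ribosomal proteins rose, with a median of 1.93 and a median transcript of 1053 bases, whereas of the other 175, 47 rose and 84 fell, with a median of -0.25 and a median transcript of 3893 bases. Over all tested genes of 174 to 1226 bases, 86.5% were higher. The offsets gave 27 higher and 1 lower for the 30 (median 0.73), and 40 and 64 for the 175 (median -0.03). Reads of ribosomal protein genes can be shared with their processed pseudogenes.

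Other long noncoding RNAs were split, 4 of 15 higher and 6 lower, with a median of -0.11. The share called was 66.7%, beside 72.1% of all genes (35.6% higher and 36.5% lower). The offsets gave 3 higher and 7 lower (median -0.31). The symbol 2900097C17Rik, a RefSeq synonym of both Norad and Bscl2, fell by 1.32 (SE 0.09, adjusted p = 5.531e-10). Peg13, an imprinted brain RNA, fell by 1.43 (SE 0.10, adjusted p = 1.019e-09) and Tug1, a nuclear RNA linked to Polycomb repression, by 1.15 (SE 0.10, adjusted p = 1.307e-08). With the offsets these 3 were at -0.65, -0.68 and -0.31. All annotated long noncoding genes other than the 9 were a group added after the data were seen. Of 260 tested, 95 rose and 51 fell, with a median of 0.32 and a median transcript of 2014 bases. The share called was 56.2%, below that of all genes. With the offsets the balance turned, to 44 higher and 70 lower and a median of -0.24.

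Among proteins that work with the long RNAs, more were lower than higher. Of 20 paraspeckle proteins, 11 fell and 5 rose (median -0.23), beside 36.5% lower and 35.6% higher over all genes. Scaling by total count gave 15 and 1, and the offsets gave 9 and 5 with a median of 0.03. The chromatin remodeller Smarca4 was lower by a log2 fold change of -1.78 (adjusted p = 4.002e-11), the polyadenylation factor Cpsf7 by -0.99 (adjusted p = 9.122e-08), and its partner Nudt21 was higher by 1.06 (adjusted p = 1.444e-07). Without cWT replicate 2, 3 of them rose. Of 20 nuclear speckle proteins, 10 fell and 4 rose (median -0.30, and 16 and 3 with scaling by total count). The offsets gave 11 and 5 (median -0.22). The median transcript was 3482 bases in the paraspeckle list and 3506 bases in the speckle list. Over all tested genes of 3002 to 3510 bases, 37.6% were lower and 17.4% higher (median -0.19). The speckle scaffold Srrm2 fell by 2.88 (SE 0.10, adjusted p = 4.037e-13), its relative Srrm1 fell by 2.1 (SE 0.11, adjusted p = 1.412e-11) and the splicing factor Prpf8 fell by 1.81 (SE 0.09, adjusted p = 1.321e-11). With the offsets, Srrm1, Srrm2 and Prpf8 were at -1.91, -1.34 and -0.48, and Smarca4, Cpsf7 and Nudt21 at -0.51, -0.74 and 1.68. RNase P and tRNase Z cut the ends of Malat1 and of long Neat1. More of their genes were higher, 10 of 13, and 2 were lower (median 1.54), or 5 and 2 with the offsets (median 0.21). The median transcript of this list was 1042 bases. Over all tested genes of 174 to 1226 bases, 86.5% were higher and 2.62% lower (median 1.57). Pop5, Rpp25l and Pop4, subunits of RNase P, rose by 1.89, 1.62 and 1.34, and stood at 0.71, 0.32 and 0.89 with the offsets. Without cWT replicate 3 or without cKO replicate 2, 1 gene of this list was lower.

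Among factors that handle snoRNAs, more were higher than lower, beside 35.6% higher and 36.5% lower over all genes. Of 18 snoRNP proteins and assembly factors, 13 rose and 3 fell (median 0.77), led by Nop10 at 2.03 (SE 0.12, adjusted p = 8.742e-11), Fbl, the methyltransferase of box C/D snoRNPs, at 1.55 (SE 0.09, adjusted p = 8.9e-11) and Nhp2 at 1.82 (SE 0.11, adjusted p = 9.244e-11). With the offsets 8 rose and 3 fell (median 0.26), and Nop10, Fbl and Nhp2 were at 0.65, 0.53 and 0.54. Of 19 genes of the RNA exosome, which trims snoRNAs, 12 rose and 4 fell (median 1.01), with Exosc8 and Exosc6 up by 1.52 and 1.76 and Zfc3h1, a nuclear cofactor, down at -1.92. With the offsets, 6 of 18 rose and 4 fell (median 0.07), and Exosc8, Exosc6 and Zfc3h1 were at 0.47, 1.1 and -0.79. Of 19 nonsense-mediated decay and exon junction genes, 12 fell and 6 rose (median -0.55). The decay kinase Smg1 fell by 2.7 (SE 0.11, adjusted p = 1.858e-12) and the decapping factor Dcp1a by 1.66 (SE 0.12, adjusted p = 8.222e-10), while Magoh, a core part of the exon junction complex, rose by 1.87 (SE 0.12, adjusted p = 1.629e-10). With the offsets these 3 were at -0.75, -0.75 and -0.16. Over the whole decay list the offsets gave 10 lower and 4 higher (median -0.24). The median transcript was 1042 bases for the RNase P and tRNase Z list and 3963 bases for the nonsense-mediated decay list. Over all tested genes of 3511 to 4145 bases, 51.3% were lower and 14.2% higher (median -0.4). The median transcript was 2074 bases for the snoRNP list and 1730 bases for the exosome list. Over all tested genes of 1702 to 2113 bases, 65.9% were higher and 8.01% lower (median 0.62). The part of length in the counts of these lists was tested only through the offsets.

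**Figure D5:**
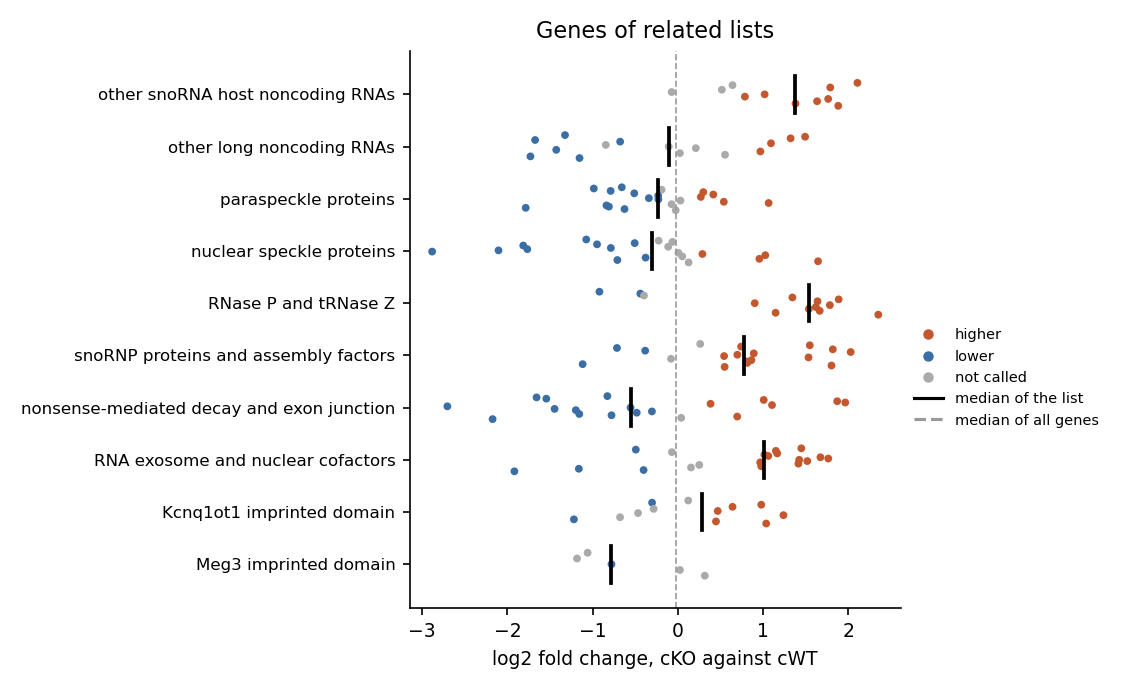
Log2 fold changes (cKO against cWT) of the tested genes of 10 related lists, 1 point per gene (orange, higher; blue, lower; grey, not called), with black bars at list medians and a dashed line at the median of all genes. Other snoRNA hosts, RNase P and exosome genes lie mostly to the right, and decay and speckle genes mostly to the left.

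Genes in and around the imprinted domains of Kcnq1ot1 and Meg3 were looked at, and whether these RNAs silence them in microglia was not tested. Of 12 tested genes listed for Kcnq1ot1, 6 rose and 2 fell (median 0.28), whereas with scaling by total count 2 rose and 4 fell. The share called was 66.7%, below the 72.1% of all genes. Cdkn1c, a cell cycle inhibitor and the nearest tested gene to its right, rose from 28.3 ± 1.84 to 44.1 ± 2.01 CPM (log2 fold change 0.64, SE 0.11, adjusted p = 3.513e-05). Tssc4 on its other side rose by 1.04 (SE 0.12, adjusted p = 3.856e-07) and Cd81, a tetraspanin abundant in microglia, by 0.98 (SE 0.10, adjusted p = 1.127e-07). Tnfrsf23, a decoy receptor, fell by 1.22 (SE 0.18, adjusted p = 1.02e-05). With the offsets, 2 rose and 2 fell, with Cdkn1c at 0.35, Tssc4 at 0.43 and Cd81 at 0.15. Kcnq1ot1 itself was at 1.12 in that fit and at 0.16 with the median transcript length, against -2.48 without offsets. Cars, the other gene that fell (-0.30, adjusted p = 0.04786), was not called when cKO replicate 1, cKO replicate 2, cWT replicate 2 or cWT replicate 3 was omitted, nor was Tspan32 (0.45, adjusted p = 0.01422) without cWT replicate 2 or cKO replicate 3.

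Of 5 tested genes listed in and around the Meg3 domain, 1 was called, beside 72.1% of all genes, and 3 with scaling by total count. Ppp2r5c, a phosphatase subunit 875394 bases away, fell by 0.78 (SE 0.09, adjusted p = 4.597e-07). Dlk1, the paternally expressed partner of Meg3, was at -1.18 on the log2 scale (SE 0.56, edgeR adjusted p = 0.06864). Among the omissions of 1 library, Dlk1 was called without cKO replicate 2, when 2 genes of the list were lower. Rian, a noncoding RNA downstream of Meg3 in the cluster that also hosts snoRNAs, did not pass the test, at 1.39 ± 0.219 CPM in cWT and 1.42 ± 0.534 CPM in cKO (log2 fold change 0.02, SE 0.40, adjusted p = 0.9594). With the offsets, Rian and Wdr25, another gene of the list, were called higher at 0.98 (adjusted p = 4.408e-02) and 0.97 (adjusted p = 2.656e-03).

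Neighbours of the hosts went in both directions. Trnau1ap, a selenocysteine factor that lies 739 bases past Snhg12 on the other strand, rose by 1.43 (SE 0.11, adjusted p = 2.715e-09). Rc3h1, which encodes an RNA-binding repressor and lies upstream of Gas5, fell by 2.05 (SE 0.12, adjusted p = 4.656e-11). Zbtb37 overlaps the upstream start of Gas5 on the other strand and fell by 1.37 (SE 0.27, adjusted p = 1.563e-04), though with the offsets it was called higher at 0.67 (adjusted p = 1.739e-02), and its reads cannot be told apart from those of Gas5 if strand was not used. Its level, 8.94 ± 1.62 and 3.52 ± 1.51 CPM (n = 3 each), was below that of Gas5 in both genotypes. For Snhg6, neither Sgk3 (0.11, adjusted p = 0.3985) nor Tcf24 (-0.31, adjusted p = 0.5417) passed, and for Snhg8 the nearer neighbour Ndst3, a heparan sulfate enzyme gene 17762 bases away, fell by 2.74 (SE 0.58, adjusted p = 3.474e-04), from 2.18 ± 0.237 to 0.336 ± 0.313 CPM. On the other side of Snhg8, 121444 bases away, Mettl14 fell by 0.33 (SE 0.13, adjusted p = 0.03152), a call lost when any cWT library or cKO replicate 1 was left out. Mcmdc2, which overlaps the end of Snhg6 on the other strand, had 0 to 3 counts a library. Beside Miat, the crystallin gene Cryba4 rose by 1.87 (SE 0.11, adjusted p = 8.686e-11), away from Miat. With the offsets, Trnau1ap, Rc3h1 and Cryba4 were at 0.24, -0.56 and 0.48, and Ndst3 and Mettl14 at -1.94 and -0.45.

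Among 7718 abundant genes, those most like each member over the 6 libraries were found by the root mean square difference of log2 CPM after the cWT mean was taken off. Efr3b, Dock6 and Ash1l were nearest to Malat1 (0.18, 0.20 and 0.20). Gnaq, Kif5b and Xiap were nearest to Neat1 (0.03, 0.03 and 0.04), and Sppl2a, St8sia4 and Stag1 to Gas5 (0.05, 0.06 and 0.06). Clec4d, Bola2 and Ptgds were nearest to Snhg6 (0.16, 0.17 and 0.17), Ascc1, Wdr61 and Mrps7 to Snhg8 (0.03, 0.04 and 0.06), and Arhgdib, Ddx39 and Clns1a to Snhg12 (0.03, 0.05 and 0.06). The scarce Meg3 and Kcnq1ot1 had no near match, with smallest differences of 0.32 to Thbs1 and 0.47 to Fat3. The nearest genes to Malat1 and Snhg6 were thus farther from them than those of Neat1, Snhg8, Snhg12 and Gas5.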

How the data were processed

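The authors deposited expected counts per gene symbol for each library. The submitters' processing notes name the aligner STAR 2.7.9a, the quantifier RSEM and DESeq2, and the builds GRCm38 and mm10, with no role or order. No source used here gives the annotation or the strand setting. Values were rounded. The authors' deposited comparison holds a base mean (a scaled signal), log2 fold changes and their errors, a Wald score and p-values, per the file headers, and only base means of Mir137 and snoRNA symbols were taken from it.

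All genes were fitted with edgeR 4.0.16 (R 4.3.3): TMM scaling, filterByExpr with a minimum count of 10, a two-sided quasi-likelihood test of genotype, Benjamini-Hochberg adjustment over 13490 genes, called under 0.05. Standard errors came from the test statistic. In simulated data of 13337 genes, 83.5% of 2-fold and 99.0% of 4-fold changes were recovered. There 200 genes were changed, up and down alike, with a fixed dispersion and no trend with length. In the real libraries 72.1% of genes were called, so these rates do not carry over to them. Replicates of a genotype differed beyond counting noise (chi-square per degree of freedom 3.84 to 19.3).

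Lengths, exons and neighbours are from GENCODE M21 (12983 genes, 96.2%), taking the principal transcript or, where none is marked, the longest. Offsets were lowess curves (span 0.3) of each library's log2 CPM, as deviations per gene, on log length and then GC. Log2 ratios of counts used a pseudocount of 0.5. Members and lists were chosen with earlier results of these data known. Named genes were all members, the 3 called genes of smallest p in each list, the 4 most abundant coding hosts, the nearest tested coding gene on each side and the 3 most similar genes (average log2 CPM no lower than 4), leaving out members, Gm and Rik genes and ribosomal protein pseudogenes there, with P2ry12 and Cx3cr1 as a check of the tissue. Further genes were named after their values were seen: Snhg3, Snhg14, Snhg17, Dancr, Snhg18, Cars, Tspan32, Rian, Wdr25, Kcnq1, Mcmdc2 and Zbtb37. Alternatives were DESeq2 1.42.0, total-count scaling, other filters, leaving out each library, a replicate block and the offsets. Same-numbered libraries were not taken as pairs. Some neighbouring genes are not reported here.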

Additional observations from a re-analysis of the deposited data

How the results depend on the processing

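Of 650 recomputed values, 584 stayed in direction and within the spread or 1.5 times the count, 61 moved and 5 reversed. The largest moves came from the offsets for transcript length and GC. With them the log2 fold changes were -1.54 for Malat1, 1.10 for Neat1 (reversed), -0.23 for Meg3, 1.12 for Kcnq1ot1 (reversed), -1.34 for Gas5, 1.0 for Snhg6, -0.14 for Snhg8 (reversed) and 0.19 for Snhg12. With the median transcript length they were -3.13 for Malat1, -1.07 for Neat1, 0.16 for Kcnq1ot1 (reversed), -1.5 for Gas5, 2.19 for Snhg6, 0.92 for Snhg8 and 0.74 for Snhg12, and Neat1 was at -1.12 less the median of its length class (reversed). Scaling by total count, which moved the median of all genes to -0.42, gave -2.97 for Malat1, -1.6 for Neat1, -1.38 for Gas5, 2.47 for Snhg6, 1.25 for Snhg8 and 0.73 for Snhg12. The causes of these moves were not tested.

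List counts with the offsets were 3 called, 2 higher and 1 lower, for other snoRNA hosts, 7 called and 5 higher for RNase P, 8 higher for snoRNP proteins, 10 called and 6 higher for the exosome, 4 called and 2 higher in the Kcnq1ot1 domain, and 3 called and 2 higher in the Meg3 domain. With the median transcript length they were 4 called, 4 higher, for other snoRNA hosts, 2 higher for paraspeckle proteins, 1 lower for RNase P, 4 lower in the Kcnq1ot1 domain, and 2 called, 2 lower, in the Meg3 domain. Scaling by total count gave 1 higher paraspeckle protein, 16 lower speckle proteins, 2 higher and 4 lower genes in the Kcnq1ot1 domain, and 3 called, 3 lower, in the Meg3 domain. Testing without a filter gave 3 higher paraspeckle proteins. Requiring 5 CPM gave 5 called and 5 higher other snoRNA hosts and 1 lower gene in the Kcnq1ot1 domain, as did DESeq2 for that domain with 1. Leaving out 1 library gave 3 to 5 higher paraspeckle proteins, 1 to 3 lower RNase P genes, 1 to 2 lower in the Kcnq1ot1 domain, and 1 to 2 called and 1 to 2 lower in the Meg3 domain.

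A replicate block called 9911 genes. Same-numbered libraries had correlations of 0.0985, 0.0335 and 0.0882, none of them above 0.1. Although each library correlated best with its own number, the numbers were not taken to pair the samples. Counts limit Miat, Meg3 and Kcnq1ot1 most.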
